A study of Homo sapiens with 6 samples.

Results

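The genes described here are 7 metallothioneins (MT1A, MT1E, MT1F, MT1G, MT1M, MT1X and MT2A) and 3 genes of the zinc response (MTF1, SLC30A1 and SLC39A10). These 10 genes were taken by symbol from the 58302 Ensembl genes counted in each library. The libraries were labelled as MDA-MB-231, an established breast cancer cell line of the mesenchymal/basal-like class, and the labels name no treatment beside the shRNA. In the control group (n = 3) the cells expressed a control shRNA, and in the Smyca knockdown group (n = 3) they expressed Smyca shRNA #1, an shRNA in the pLKO.1 vector against the lncRNA Smyca. The knockdown group rests on a single shRNA sequence. All 6 libraries were made from total RNA after rRNA removal, and the question of the comparison was which genes depend on Smyca.

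Metallothioneins are small, cysteine-rich proteins that bind zinc and copper and take up cadmium. Their genes are switched on when free zinc rises in the cell: zinc binds MTF1, a zinc finger transcription factor, which then sits on short metal response elements in their promoters. MTF1 also induces SLC30A1, which encodes the plasma membrane zinc exporter ZnT1, and represses SLC39A10, which encodes a zinc importer of the ZIP family. Glucocorticoids, oxidative stress and hypoxia are other known inducers of metallothionein genes.

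Metal response elements share the core TGCACNC or TGCGCNC, where N is any base. Both forms were searched for on both strands in the 250 bases before the annotated start (RefSeq, GRCh38.p14), and 24.8% of 35116 promoters held at least 1 match. Among the members, promoter sequences were at hand for MT2A, MT1X, MTF1, SLC30A1 and SLC39A10 only. MT1A, MT1E, MT1F, MT1G and MT1M were not searched, so nothing is said of matches in them. MT2A held 7 matches and MT1X 4, counts that 0.031% and 0.37% of all promoters reach. SLC30A1 held 1 match, and neither MTF1 nor SLC39A10 (with 2 annotated starts) held any. The promoters with a match are shown here because MTF1 acts through such elements, with each match in capitals. A match is a description of the letters and not a measured binding site. They lie at chr16:56608334-56608583 (MT2A, plus strand), chr16:56682220-56682469 (MT1X, plus strand) and chr1:211579162-211579411 (SLC30A1, minus strand), and are written 5′ to 3′ on the strand of the gene.
MT2A: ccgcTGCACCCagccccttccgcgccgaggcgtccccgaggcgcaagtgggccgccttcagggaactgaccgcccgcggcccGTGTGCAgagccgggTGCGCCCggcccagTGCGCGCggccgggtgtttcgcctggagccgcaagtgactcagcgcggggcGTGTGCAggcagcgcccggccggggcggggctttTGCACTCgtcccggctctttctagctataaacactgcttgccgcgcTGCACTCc
MT1X: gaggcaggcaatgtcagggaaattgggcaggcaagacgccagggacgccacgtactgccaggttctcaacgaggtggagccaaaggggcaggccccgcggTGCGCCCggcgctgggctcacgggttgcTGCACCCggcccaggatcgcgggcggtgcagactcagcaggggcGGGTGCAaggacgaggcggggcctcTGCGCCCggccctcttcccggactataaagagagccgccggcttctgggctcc
SLC30A1: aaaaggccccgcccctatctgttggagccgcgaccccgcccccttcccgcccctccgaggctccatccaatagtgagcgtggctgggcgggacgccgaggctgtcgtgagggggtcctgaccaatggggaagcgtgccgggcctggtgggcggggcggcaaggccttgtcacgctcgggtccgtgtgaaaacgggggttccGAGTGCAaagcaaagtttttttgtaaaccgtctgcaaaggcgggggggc

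**Figure D1:**
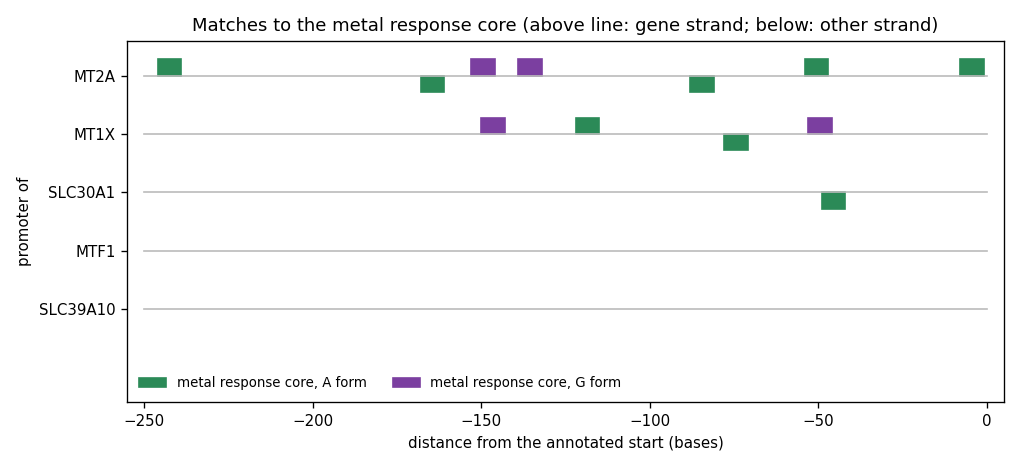
Position of each match to the metal response core in the 250 bases before the start of 5 member genes, in bases from the start, with colours for the 2 forms of the core. The 7 matches of MT2A spread over the whole window, the 4 of MT1X lie between bases -150 and -47, and the 1 of SLC30A1 is on the other strand.

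All 7 metallothioneins lie in a cluster on chromosome 16, from 56608584 (the start of MT2A) to 56684196 (the end of MT1X), a stretch of 75.6 kb in GRCh38. MT1G is on the minus strand and the other 6 are on the plus strand. MTF1 (37809574 to 37859592) and SLC30A1 (211571568 to 211579161) are on the minus strand of chromosome 1, and SLC39A10 (195575977 to 195737702) is on the plus strand of chromosome 2. Although the metallothioneins are close copies, no stretch of 100 bases in an annotated transcript of MT1A, MT1E, MT1F, MT1G, MT1M or MT2A also occurred in a transcript of another gene. MT1X differed in this: 11.6% of its 100-base stretches also belong to ENSG00000259827, a lncRNA gene on the same strand that spans MT1X and had 0 counts in each library. A counter that sets aside reads lying in more than 1 gene would lose reads of MT1X there, so its level is uncertain.

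Total counts per library lay between 14999307 and 16501085. Levels are given as normalized CPM, the counts of a gene relative to the TMM-scaled library size. The targeted lncRNA, Smyca (gene MIR23AHG), had 25.0, 19.5 and 22.0 normalized CPM in the 3 controls and 10.5, 6.97 and 5.61 after knockdown, without overlap (edgeR quasi-likelihood, Benjamini-Hochberg adjusted p = 0.111). The deposited FPKM column of control repeat 2 did not follow its count column: the whole reads behind it correlated at 0.996 with control repeat 3 and at 0.951 with the counts of control repeat 2, across genes. With the knockdown libraries they correlated at 0.955 to 0.962. A fit with these reads in place of the counts therefore comes close to using control repeat 3 again. Its p-values and lack of overlap do not rest on 3 independent controls. The line was checked against marker lists. All 10 mesenchymal/basal-like markers were counted in it, with a sum of 854 to 1745 normalized CPM in the control and 803 to 1149 in the knockdown, and all 10 were higher in the control. MSN was the largest part of this sum in each library, at 341 to 767 and 494 to 737. VIM was at 71.2 to 305 over all libraries, and CD44, AXL, EGFR and ZEB1 were lower, at 6.22 to 51.1. Of 8 luminal markers, PGR had 0 counts and ESR1 at most 3, and the sum was 1103 to 2212 in the control and 1085 to 1346 in the knockdown, mostly KRT19. XBP1 was at 101 to 172 and AGR2 at 27.1 to 82.7 over all libraries. All 5 luminal markers tested had a higher mean in the control. However, 9 of 10 gut markers were also counted, with a sum of 303 to 580 in the control and 641 to 721 in the knockdown, nearly all of it VIL1 and HNF4A. VIL1 was at 220 to 343 and 422 to 501, and HNF4A at 65.4 to 187 and 186 to 194, 2 genes that a mesenchymal breast line is not known for, while CDX1 was at 0 and CDX2 at 6.08 to 11.1. Of the 6 gut markers tested, 4 had a lower and 2 a higher mean in the control, the latter being LGALS4 and MUC13. VIL1 and HNF4A go against the label, the identity of the line was not tested further, and the line is named here as labelled. Sums of liver markers (26.4 to 74.2, nearly all SERPINA1), fibroblast markers (10.5 to 31.6) and leukocyte markers (0.635 to 1.66) were low over all 6 libraries. The part of these marker differences in the results below was not tested.

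MT2A was by far the most abundant member and made up 84.8% to 90.4% of the summed metallothionein CPM in every library. On the scale of normalized CPM per kilobase of gene length, which allows genes to be compared with each other, its level was 337 ± 86.6 among controls and 226 ± 50.1 after Smyca knockdown (SD, 3 libraries a group), rank 416 among 29602 genes with a known length. The next level, in the control, was shared by MT1A (27.9 ± 4.88), MT1E (26.9 ± 19.5) and SLC39A10 (25.8 ± 3.67), which did not differ beyond their spread. MT1G (6.89 ± 1.81), SLC30A1 (5.18 ± 0.937), MT1F (4.26 ± 2.76) and MTF1 (4.03 ± 0.759) followed. Neighbours among these 4 did not differ beyond their spread, while all 3 control values of MT1G were above those of MTF1, and MT1X (2.44 ± 1.49) came next. MT1M was at the limit of counting, with 3, 2 and 0 counts in the control repeats and 0 counts in each knockdown repeat, where 3 counts is the limit that a count of 0 allows. MT1M did not pass the low-count filter and was not tested in the edgeR fit of all 6 libraries with that filter.

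Of the other metallothionein genes, MT3 had 0 to 7 counts in a library, MT1H had 1 count in 1 library, and MT1B, MT4 and MT1HL1 had 0 counts throughout. Among 7 pseudogenes, MT1DP had 8, 6 and 0 counts in the control and 0, 2 and 0 in the knockdown, while MT1L and MT1XP1 had at most 3. None of these genes passed the low-count filter, and none had more than 8 counts in a library, where MT1X had 2 to 55.

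The comparison of the groups used the 9 members that passed the low-count filter, with fold changes given as control over Smyca knockdown. In bulk RNA, fewer expressing cells and less RNA per cell cannot be told apart. A gene was called when this ratio was at least 1.5 or at most 0.66 with an adjusted p under 0.05. By this rule 0 of the 9 were called, against 4 of all 15075 genes tested (0.0265%), and DESeq2's Wald test called 0 of the 10, against 870 of 30404 genes (2.86%). All 6 tested metallothioneins had a higher mean in the control, where 53.4% of all genes did, but MT1E and MT1G turned when a single library was left out. The median log2 fold change of the 6 was 0.73, against 0.036 over all genes tested. An unadjusted p under 0.05 was reached by 4 of the 9 members (44.4%), MT1A, MT1F, MT1X and MT2A, where the share over all genes was 19.2% in both directions, 10.4% higher and 8.74% lower in the control. These 4 were all higher in the control. The count was 1 (MT1A) without control repeat 1, where the share over all genes was 11.2%, and also 1 (MT1A) without knockdown repeat 1, where it was 15.8%. The groups did not overlap in 2 members, MT1A and MT1X, both higher in the control. That share of 22.2% is near the 24.8% of all genes (12.4% higher and 12.5% lower in the control).

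MT2A, the main metallothionein of most human tissues, was at 241, 163 and 278 normalized CPM in control repeats 1, 2 and 3 and at 116, 183 and 158 in the knockdown repeats. Control repeat 2 lay below knockdown repeat 2, and the groups overlapped in this pair alone. The log2 fold change was 0.58 ± 0.24 (SE, adjusted p = 0.236, edgeR), or 1.49-fold, and it was 0.40 without control repeat 3. With the reads recovered from its deposited FPKM in place of the counts, control repeat 2 was at 279, the groups did not overlap, and the log2 fold change was 0.79 (adjusted p = 0.105, edgeR). That value is close to the 278 of control repeat 3, so this fit adds no independent control.

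MT1A was at 9.32, 10.6 and 13.1 normalized CPM in the control and at 4.19, 7.41 and 6.21 in the knockdown. The lowest control library was above the highest knockdown library, and the MT1A means were 11.0 ± 1.93 and 5.94 ± 1.63 (SD, n = 3 each). Its log2 fold change of 0.89 ± 0.28 (SE, adjusted p = 0.154, edgeR) stayed between 0.69 and 1.08 under all 13 alternatives. Its unadjusted p was 0.0118, and MT1A stayed under 0.05 with each library left out in turn.

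MT1X was counted at 55, 21 and 20 reads in the control and 2, 14 and 10 in the knockdown, with means of 1.99 ± 1.22 and 0.558 ± 0.390 normalized CPM (SD, n = 3 each). The groups did not overlap, with control repeat 1 far above the other libraries and knockdown repeat 1 far below them. The log2 fold change was 1.82 ± 0.66 (SE, adjusted p = 0.194, edgeR), with a range of 1.20 to 2.32 when each library was left out in turn. It was the largest fitted difference of the members and rests on the lowest counts of those tested.

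MT1F was at 4.07, 4.68 and 0.832 normalized CPM in the control and at 0.889, 1.08 and 1.39 in the knockdown. Control repeats 1 and 2 were above all knockdown libraries, and control repeat 3 was below them all. The log2 fold change was 1.51 ± 0.59 (SE, adjusted p = 0.216, edgeR). Without control repeat 3 it was 1.96 and MT1F was called (adjusted p = 0.0124, edgeR), in a fit that called 10.5% of all genes. With the reads recovered from the FPKM of control repeat 2, which put that library at 0.810, it was 0.75 (adjusted p = 0.553, edgeR).

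MT1E had the opposite pattern among the control repeats, at 9.69, 8.68 and 29.1 normalized CPM, and was at 5.59, 10.1 and 16.9 in the knockdown. The groups overlapped, and within each group repeat 3 was the highest, at 3.35 times the lowest library in the control and 3.03 times in the knockdown. The log2 fold change of MT1E was 0.54 ± 0.53 (SE, adjusted p = 0.602, edgeR), about the size of its error, and became -0.24 without control repeat 3. With the reads recovered from the FPKM of control repeat 2, which put that library close to control repeat 3, it was 0.99 (adjusted p = 0.303, edgeR).

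MT1G was at 2.96, 3.82 and 2.24 normalized CPM in the control and at 1.52, 5.58 and 0.990 in the knockdown. Knockdown repeat 2 was the highest of all 6 libraries and the other 2 knockdown libraries were the lowest. The log2 fold change of MT1G was 0.16 ± 0.60 (SE, adjusted p = 0.908, edgeR), and it lay between -0.25 and 1.25 with 1 library left out.

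Summed over the 7 metallothioneins, the level was 271, 193 and 324 normalized CPM in the control and 129, 208 and 184 in the knockdown, with means of 263 ± 66.3 and 174 ± 40.9 (SD, n = 3 each). The sum follows MT2A, so control repeat 2 again lay below knockdown repeat 2 (two-sided exact permutation test on log2 values, p = 0.2, where 0.1 is the smallest p that 3 against 3 libraries allow). Counted as 1 feature in the same edgeR fit, the 7 genes had a log2 fold change of 0.60 ± 0.24 (SE, adjusted p = 0.227). The shares of the sum overlapped between the groups for MT1E, MT1A and MT1X. MT1E took 5.68% ± 2.88 in the control and 6.12% ± 2.65 in the knockdown, MT1A 4.34% ± 1.08 and 3.39% ± 0.152, and MT1X 0.773% ± 0.438 and 0.294% ± 0.173 (SD, n = 3 each).

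MTF1, the zinc sensor, was counted at 277, 325 and 213 reads in the control and at 279, 322 and 399 in the knockdown, with means of 16.9 ± 3.18 and 21.5 ± 4.42 normalized CPM (SD, n = 3 each). After scaling, control repeat 2 was above knockdown repeat 1 and this was the only overlap of the groups, and the log2 fold change of MTF1 was -0.34 ± 0.22 (SE, adjusted p = 0.425, edgeR), which was negative under all 14 alternatives and nearest to 0 (-0.18) without knockdown repeat 3. With the reads recovered from the FPKM of control repeat 2 the groups no longer overlapped and the value was -0.65 (adjusted p = 0.184, edgeR). Those reads are close to control repeat 3 across genes and add no independent control.

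SLC30A1, the zinc exporter, was at 23.0, 28.9 and 33.2 normalized CPM in the control and at 39.9, 54.9 and 28.8 in the knockdown. Knockdown repeats 1 and 2 were above all controls, and knockdown repeat 3 was among them. The log2 fold change of SLC30A1 was -0.54 ± 0.25 (SE, adjusted p = 0.282, unadjusted p = 0.0605, edgeR) and ranged from -0.75 to -0.28 over the alternatives, with an adjusted p of 0.133 to 0.681. Its unadjusted p was under 0.05 with DESeq2, with the filter of 1 count in all libraries together, and without control repeat 3 or knockdown repeat 3. The sign of its value was opposite to that of the 6 tested metallothioneins, with which it shares MTF1 as an inducer. Within each library, which removes the scaling between libraries, there were 10.5, 5.65 and 8.37 MT2A counts per SLC30A1 count in the control and 2.92, 3.34 and 5.50 in the knockdown. For MT1A the ratios were 0.406, 0.368 and 0.396 in the control and 0.105, 0.135 and 0.216 in the knockdown. Neither ratio overlapped between the groups, but both were chosen after the values had been seen and were not tested.

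SLC39A10, the importer that MTF1 represses, was at 63.7, 58.9 and 47.9 normalized CPM in the control and at 55.4, 42.3 and 54.9 in the knockdown. The groups overlapped, and the log2 fold change of SLC39A10 was 0.16 ± 0.17 (SE, adjusted p = 0.640, edgeR). It was 0.00051 with the reads recovered from the FPKM of control repeat 2. Its spread was the smallest of the members, with an SD of 14.2% of the mean in the control and 14.6% in the knockdown.

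**Figure D2:**
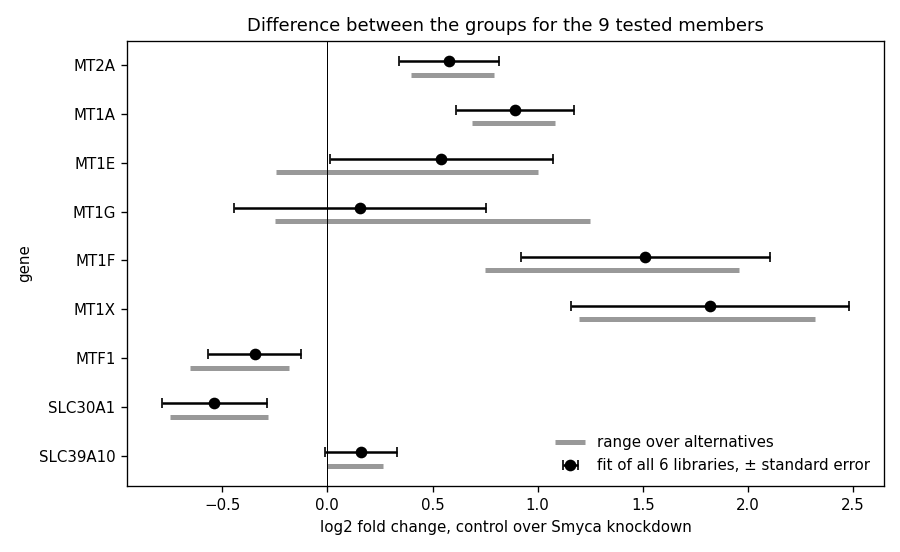
Log2 fold change of the 9 tested members, control over Smyca knockdown (points with standard error, fit of all 6 libraries), with the range over the alternative analyses in grey. The 6 metallothioneins lie above 0 and MTF1 and SLC30A1 below it, and the grey range of MT1E and MT1G crosses 0.

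The other zinc transporters were described as lists. Of 9 further ZnT genes, which export zinc or load it into vesicles, 7 were tested, 3 of them higher and 4 lower in the control, with a median log2 fold change of -0.052. An unadjusted p under 0.05 was reached by 1, SLC30A5, whose protein loads zinc into the early secretory pathway together with that of SLC30A6. The share over all genes at that threshold was 19.2%, with 8.74% lower in the control. SLC30A5 was at 46.5, 48.5 and 54.2 normalized CPM in the control and 90.1, 77.9 and 59.0 in the knockdown, without overlap, a log2 fold change of -0.61 ± 0.18 (SE, adjusted p = 0.143, edgeR). SLC30A6 also did not overlap, at 18.2 to 20.4 in the control and 23.0 in each knockdown library, with a log2 fold change of -0.24 ± 0.15 (SE). SLC30A3, the transporter of synaptic vesicles, was the other way round at 6.28 to 8.55 and 2.22 to 6.01, with 0.77 ± 0.37 (SE). Of the 7 tested, 3 were higher in the knockdown without overlap (SLC30A5, SLC30A6 and SLC30A9) and 1 in the control (SLC30A3). Over all genes, 24.8% did not overlap.

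Of 13 further ZIP genes, which bring zinc into the cytosol, 11 were tested, 4 of them higher and 7 lower in the control, with a median log2 fold change of -0.097. SLC39A1, a plasma membrane importer, was the 1 with an unadjusted p under 0.05, where 19.2% of all genes had one. It was at 169, 161 and 178 normalized CPM in the control and at 265, 284 and 212 in the knockdown, where all 3 libraries were above the control, a log2 fold change of -0.59 ± 0.16 (SE, adjusted p = 0.127, edgeR). SLC39A6 had -0.29 ± 0.16 (SE), also without overlap, and SLC39A11 had 0.56 ± 0.30 (SE) with overlapping groups. SLC39A1 and SLC39A6 were the 2 of the 11 without overlap, where 24.8% of all genes did not overlap.

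Of 8 copper handling genes, 7 were tested, 5 higher and 2 lower in the control, and 0 had an unadjusted p under 0.05 or groups without overlap (edgeR, 0 were called, and the median log2 fold change was 0.063). The shares over all genes were 19.2% and 24.8%. The copper importer SLC31A1 had a log2 fold change of 0.31 ± 0.17 (SE), the chaperone COX17 one of -0.24 ± 0.18 (SE) and the copper pump ATP7B one of 0.35 ± 0.30 (SE).

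**Figure D3:**
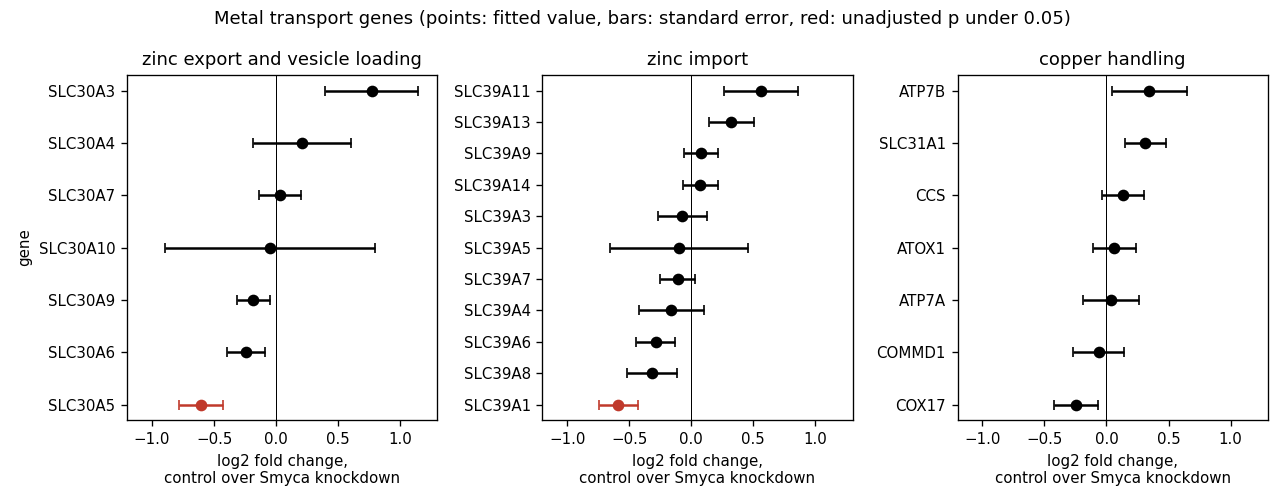
Log2 fold change, control over Smyca knockdown, with standard error, of the tested ZnT, ZIP and copper handling genes, with red for an unadjusted p under 0.05. Only SLC30A5 (-0.61) and SLC39A1 (-0.59) are in red, both lower in the control.

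Genes of other responses known to induce metallothioneins were counted in the same fit, in which 10.4% of all genes were higher and 8.74% lower in the control with an unadjusted p under 0.05. Of 15 hypoxia-inducible genes all 15 were tested and had a higher mean in the control, 12 with an unadjusted p under 0.05 and 0 called. Their summed level was 2599, 1463 and 843 normalized CPM in the control repeats and 784, 488 and 704 in the knockdown repeats. Of 10 glucocorticoid-inducible genes 9 were tested, 7 higher and 2 lower in the control, 4 and 1 of them with an unadjusted p under 0.05, at sums of 424 to 992 and 280 to 401, and 1, DUSP1, was called. The 1 lower in the control was FKBP5, at 45.3 to 68.1 in the control and 78.6 to 85.6 in the knockdown, without overlap. ZBTB16 of this list had 0 counts in each library. Of 9 heat shock genes, 6 were higher and 3 lower in the control, 4 and 0 with an unadjusted p under 0.05 and 0 called, at sums of 2715 to 4375 and 2846 to 3612, which overlapped. The part of these differences in the metallothionein values was not tested.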

How the data were processed

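RNA of 3 control and 3 Smyca knockdown cultures, named biological repeats by the study, was compared, with groups and repeat numbers from the sample titles. The authors prepared strand-specific libraries, mapped paired reads to GRCh38/hg38 by TopHat (version 2.0.12), with HTSeq as the counter, whose strand setting and annotation release are not given in the sources used here. The authors deposited raw read counts per Ensembl gene, which were used as they are, and FPKM values, which served for gene lengths and for the reads behind the FPKM values of control repeat 2 (100% of values under 200 within 0.05 of a whole number). GENCODE release 44 gave symbols to 57532 of 58302 identifiers.

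Counts were normalized (TMM), filtered (filterByExpr, minimum count 10) and tested with the quasi-likelihood test of edgeR 4.0.16 in R 4.3.3, with limma 3.58.1 loaded and Benjamini-Hochberg adjustment over 15075 genes. This replaces the authors' DESeq. The biological coefficient of variation was 25.2%. The standard error of a log2 fold change is its size over the root of the F statistic. Alternatives were RLE factors, total counts, other filters (at least 1 count in all libraries together, at least 10 in every library), DESeq2 1.42.0, a block on repeat number, each library left out, those recovered reads and the metallothioneins counted as 1 feature. The code was tested on simulated counts. Members, lists and named genes (all members, and at most the 3 lowest p-values of a list; others were named after their values were seen) were chosen with earlier results of these data known. Metal response cores were searched in RefSeq promoter sequences.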

Additional observations from a re-analysis of the deposited data

Results flagged for a closer look

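The reads recovered from the FPKM of control repeat 2, a column that the comparison does not use, gave MT1E 456 reads where the count column of the same library holds 141, and MT1F 14 reads where the count column holds 76. In normalized CPM these were 26.4 for MT1E and 0.810 for MT1F, next to 29.1 and 0.832 in control repeat 3. Both were listed because this signal lies outside the main measurement, and its source was not tested.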

How the results depend on the processing

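Of 119 member values under the alternatives, 114 kept their direction, and 1 was past the adjusted threshold (MT1F without control repeat 3). The 5 reversed values were MT1E without control repeat 3 (-0.24, in a range up to 1.00 with 1 library left out), and MT1G without control repeat 2, knockdown repeat 1 or knockdown repeat 3 (range -0.25 to 1.25) and with the reads recovered from the FPKM of control repeat 2 (-0.14). The cause was not tested. The number of members called was 0 to 1 with each library left out and 0 under every other alternative. An unadjusted p under 0.05 was reached by 1 member in the fit blocked on repeat number (17.0% of all genes), by 1 to 4 with a library left out (10.8% to 29.6% of all genes), and by 5 with DESeq2 (10.5% of all genes) and with the filter of 1 count (13.2% of all genes), where SLC30A1, lower in the control, was added. Members without overlap numbered 1 with at least 10 counts in every library, where MT1X was not tested, 4 with the reads recovered from that FPKM column (27.9% of all genes), and 2 to 4 with a library left out (4 without control repeat 2, control repeat 3 or knockdown repeat 2), where the share of all genes was 29.4% to 49.2%, since fewer libraries overlap less by construction. The metallothionein sum stayed between 0.38 and 0.83 (log2). Over all genes, 4 were called in the fit of all libraries, against 8 with total counts, 10 with the reads recovered from that FPKM column, 916 with 30409 genes tested at 1 count or more, 870 with DESeq2, 0 with the block and 0 to 1628 with a library left out (1628 without control repeat 3). Unadjusted p-values under 0.05 numbered 2893 in the fit of all libraries and 1687 (without knockdown repeat 2) to 4575 (without control repeat 3) with a library left out. Same-numbered repeats deviated from their group means with correlations of -0.014 to 0.084, and other pairs with -0.18 to 0.080. With 3 libraries a group this cannot decide whether same-numbered repeats were handled together, which the labels do not say. Of the 4 members with an unadjusted p under 0.05 only MT1A remained below it in the block. At the depth of these libraries MT1M was too low for the low-count filter, and it was not called in the fits that tested it (DESeq2 and the filter of 1 count). MT1X rests on 2 to 55 reads.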
